A study of Homo sapiens with 9 samples.

Results

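The transcriptome of GIST-T1 cells carrying an sgRNA against HAND1 was compared with that of the same cells carrying an sgRNA against Luciferase. The comparison takes 6 of the 9 libraries of the study, 3 for HAND1 sgRNA and 3 for Luciferase sgRNA, and all genes of the deposited expression table. The remaining 3 libraries, with an sgRNA against ETV1, were not part of the comparison and served for the filter on low values, for the estimate of the spread and to show where a change differs from that with another sgRNA. GIST-T1 is a human cell line established from a gastrointestinal stromal tumour (GIST), a tumour that shares many transcripts with interstitial cells of Cajal, which pace the contractions of the gut. All 3 groups are this 1 line and differ, per the labels, only in the sgRNA; the label for it calls it a knockdown. Luciferase is an insect enzyme without a counterpart in human cells, so its sgRNA is the control. The sgRNA sequences, the effector protein they guide, the time after delivery and any cloning of cells are not stated in the labels. Nothing in the labels says that replicates were separate cultures, so p-values measure only the spread between libraries, which may be technical.

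HAND1 is a transcription factor with a basic helix-loop-helix (bHLH) domain, needed for heart, placental and lateral mesoderm development. Such factors bind DNA in pairs, usually with an E protein (TCF3, TCF4 or TCF12), at short motifs called E-boxes, whereas ID proteins lack the DNA-binding stretch and hold E proteins away from DNA. HAND1 has been described, together with ETV1 and other factors, as part of the network of transcription factors that sets the expression programme of GIST, in which the receptor tyrosine kinase KIT signals through the kinases MEK and ERK.

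Values are FPKM, that is, fragment numbers relative to transcript length and library size. Depth is known only relative to Luciferase sgRNA replicate 1. It was 0.901, 0.953 and 0.674 in HAND1 sgRNA replicates 1 to 3, and 0.877 and 0.801 in Luciferase sgRNA replicates 2 and 3. Luciferase sgRNA replicate 3 stood apart. Its FPKM summed to 538689, against 451286 to 479939 in the other 8 libraries, and ribosomal protein genes took 11.7% of that sum, against 8.29% to 9.39%. Its genes with transcripts under 1000 nt lay 0.485 (median log2) above those of the other Luciferase sgRNA libraries. No list count of at least 3 called genes given below changed by more than 1.5 times without this library. Defining markers of other cell types were at or near 0. A mean of 1 FPKM, required for testing, was reached by 1 of 22 genes marking blood or endothelium (CD68), by 5 of 22 marking epithelium and by 5 of 26 marking neurons or glia. PTPRC and PECAM1, the pan-leukocyte and endothelial markers, had at most a trace, and CDH1 and SOX10, of epithelium and glia, were likewise near 0. Summed over its list, blood and endothelial RNA was 5.42 to 6.15 FPKM with Luciferase sgRNA and 6.002 to 9.73 FPKM with HAND1 sgRNA, most of it CD68. Epithelial RNA summed to 232 to 271 and to 211 to 225 FPKM, mostly the keratin KRT18, and neuronal and glial RNA to 65.3 to 72.8 and to 81.1 to 82.7 FPKM, mostly the tubulin TUBB3. The part of such cells in the results was not tested. The markers of the labelled cell type were present. With Luciferase sgRNA, CD34, a surface glycoprotein of GIST, averaged 1679.8 FPKM, KIT 209 FPKM and ANO1, a calcium-activated chloride channel, 165 FPKM.

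HAND1 itself was at 116, 114 and 114 FPKM in Luciferase sgRNA replicates 1 to 3 and at 37.6, 40.8 and 36.5 FPKM in HAND1 sgRNA replicates 1 to 3. The groups were far apart, and the transcript fell by 1.55 (log2, SE 0.052, adjusted p = 2.07e-07) in limma, a linear model fitted across all genes on the scale log2(FPKM + 1). In the ETV1 sgRNA libraries HAND1 stood at 134, 133 and 129.7 FPKM. HAND1 RNA was reduced and not lost in the libraries with its own sgRNA.

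In all, limma called 749 of 11348 genes tested (6.6%) at an adjusted p under 0.05. Of these, 417 (3.67% of all genes tested) were higher and 332 (2.93%) lower with HAND1 sgRNA. Every count of called genes in a gene list below is to be read beside these shares. Most changes were moderate. The median log2 change was 0.45 among the genes called higher and −0.41 among those called lower, and 27 and 21 of them changed at least 2-fold. In every called gene the groups did not overlap. Over all genes tested, the 3 values were all above the controls in 1472 (13%) and all below in 1446 (12.7%). An unadjusted p under 0.05 was reached by 2302 (20.3%). The share called was 5.08% among genes with a mean of 1 to 5 FPKM and 6.65% among those at 100 FPKM and over. Between 433 and 729 genes were called when 1 of the 9 libraries was left out. Leaving out HAND1 sgRNA replicate 1 gave 489, replicate 2 gave 482 and replicate 3 gave 433, and leaving out Luciferase sgRNA replicate 2 gave 488. With each library weighted by its own spread 1312 genes were called.

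**Figure D1:**
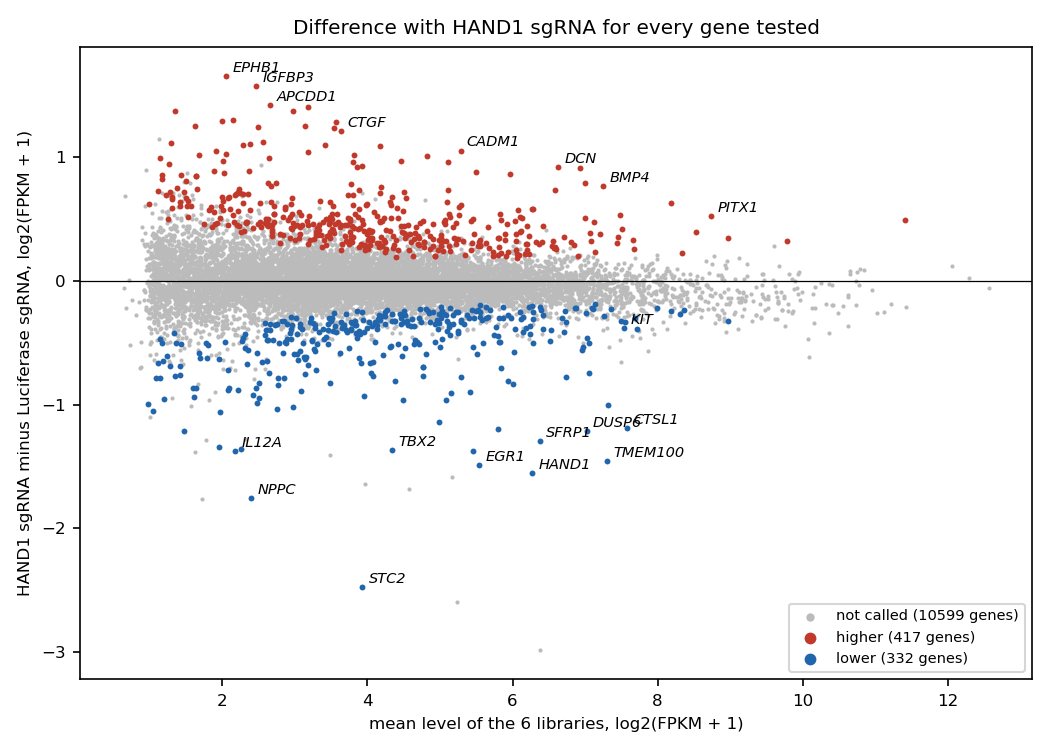
Each point is 1 gene tested, with its mean level over the 6 libraries on the x axis and the difference of HAND1 sgRNA from Luciferase sgRNA on the y axis, both as log2(FPKM + 1). The 417 genes called higher and the 332 called lower are coloured, and calls run from low to high levels.

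The largest fall was that of STC2, stanniocalcin 2, a secreted glycoprotein that inhibits the protease PAPPA. STC2 was at 24.3, 21.9 and 28.2 FPKM with Luciferase sgRNA and at 3.7, 3.69 and 3.48 FPKM with HAND1 sgRNA (log2 −2.47, SE 0.084, adjusted p = 2.07e-07). All 3 values with HAND1 sgRNA lay well below the lowest control. NPPC, the C-type natriuretic peptide, was at 4.94, 7.76 and 8.6 FPKM and at 0.694, 1.37 and 2.23 FPKM (log2 −1.76, SE 0.27, adjusted p = 0.00369). TMEM100, a membrane protein regulated by BMP signals, was at 214, 234 and 244 FPKM and at 80.8, 87 and 82.7 FPKM (log2 −1.45, SE 0.06, adjusted p = 7.78e-07). TBX2, a T-box repressor of transcription, was at 27.9, 28.2 and 28 FPKM and at 11.9, 8.83 and 10.2 FPKM (log2 −1.37, SE 0.094, adjusted p = 2.48e-05). Groups without overlap were a condition for a place among these largest falls. NPPC, the scarcest, had the widest spread for its level.

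Further down the list, IL12A, a cytokine subunit, fell from 5.52 ± 1.05 to 1.5 ± 0.161 FPKM (log2 −1.37, adjusted p = 9.77e-05; ± is the SD over 3 libraries here and below). CGNL1, a tight junction protein, fell from 5.89 ± 0.255 to 1.69 ± 0.15 FPKM (log2 −1.36, adjusted p = 2.73e-05). AFF3, a nuclear protein of the AF4 family, fell from 4.54 ± 0.503 to 1.18 ± 0.118 FPKM (log2 −1.34, adjusted p = 2.30e-04). These transcripts were scarce in the controls and scarcer with HAND1 sgRNA. FAM163A fell from 76.4 ± 3.46 to 32.8 ± 2.73 FPKM (log2 −1.20, adjusted p = 4.82e-06). CTSL1, the lysosomal protease cathepsin L, fell from 264 ± 13.5 to 115 ± 2.28 FPKM (log2 −1.19, adjusted p = 1.87e-06), and its pseudogene CTSL1P8 from 62.2 ± 9.35 to 23.3 ± 2.15 FPKM (log2 −1.37, adjusted p = 7.97e-05). The pseudogene can share reads with the gene, so how the fall divides between them is uncertain. EIF4EBP3, a member of a family of translation repressors, was at 2.74, 3.15 and 2.57 FPKM and at 0, 0.906 and 1.32 FPKM (log2 −1.22, adjusted p = 0.0231). It was low in all 6 libraries and overlaps a readthrough transcript with its neighbour ANKHD1, so that its value is uncertain. Its call was lost with a pseudocount of 0.1 (adjusted p = 0.101), without the filter (0.0596), in a fit of only the 6 libraries compared (0.0527), and without Luciferase sgRNA replicate 1 (adjusted p = 0.0587) or 2 (0.0799).

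The largest rise was that of EPHB1, a receptor tyrosine kinase for ephrin-B ligands. EPHB1 was at 1.27, 1.07 and 0.701 FPKM with Luciferase sgRNA and at 5.8, 5.27 and 4.84 FPKM with HAND1 sgRNA (log2 1.66, SE 0.16, adjusted p = 1.98e-04). IGFBP3, an extracellular carrier of insulin-like growth factors, was at 1.76, 1.88 and 1.71 FPKM and at 7.52, 7.02 and 7.31 FPKM (log2 1.57, SE 0.09, adjusted p = 6.65e-06). GPR37, an orphan G protein-coupled receptor, was at 3.43, 3.75 and 2.94 FPKM and at 10.4, 10.5 and 10.1 FPKM (log2 1.37, SE 0.099, adjusted p = 2.86e-05). Each of these receptors and binding proteins was low in the controls and several times higher in all 3 libraries with HAND1 sgRNA. VSTM2A, a secreted immunoglobulin-domain protein, rose from 4.03 ± 1.01 to 12.2 ± 1.47 FPKM (log2 1.40, adjusted p = 0.00291). MYBPH, a myosin-binding protein, rose from 1.57 ± 0.327 to 5.32 ± 0.911 FPKM (log2 1.29, adjusted p = 3.42e-04). FGL2, a fibrinogen-like protein, rose from 5.95 ± 0.712 to 15.3 ± 0.669 FPKM (log2 1.23, adjusted p = 7.25e-05). CR1L, a complement-receptor-like gene, rose from 2.69 ± 0.344 to 7.06 ± 1.24 FPKM (log2 1.12, adjusted p = 4.26e-04).

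**Figure D2:**
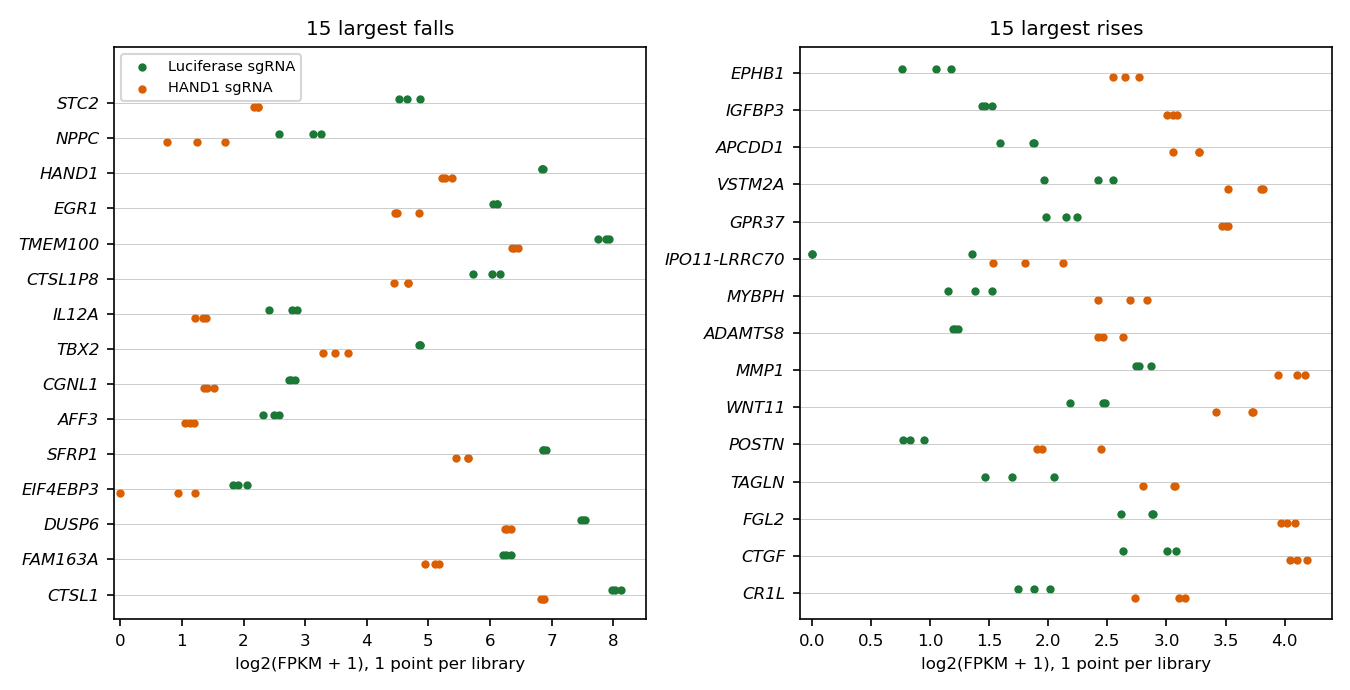
Level of the 15 genes with the largest called falls (left) and the 15 with the largest called rises (right) on the x axis, as log2(FPKM + 1), with 1 point per library for Luciferase sgRNA and HAND1 sgRNA. The genes shown were picked among those whose groups do not overlap. The values of IPO11-LRRC70, a readthrough of overlapping genes, are uncertain and near 0 in part of the libraries. Its call (adjusted p = 0.0293) was lost in 9 of 18 alternatives. Among these were those that left out any 1 HAND1 sgRNA library or Luciferase sgRNA replicate 1 or 2 (adjusted p up to 0.111).

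To show the DNA in front of genes that moved most, the promoter windows of the falls STC2 and NPPC and of the rises EPHB1 and IGFBP3 follow. They are from RefSeq on GRCh38.p14, 250 bases before to 50 after the annotated start, 5′ to 3′ on the gene's strand, with each E-box (CANNTG, which reads the same motif on both strands) in capitals. STC2 lies at chr5:173328365-173328664 on the minus strand, NPPC at chr2:231926347-231926646 on the minus strand, EPHB1 at chr3:134795010-134795309 on the plus strand and IGFBP3 at chr7:45921223-45921522 on the minus strand.
STC2: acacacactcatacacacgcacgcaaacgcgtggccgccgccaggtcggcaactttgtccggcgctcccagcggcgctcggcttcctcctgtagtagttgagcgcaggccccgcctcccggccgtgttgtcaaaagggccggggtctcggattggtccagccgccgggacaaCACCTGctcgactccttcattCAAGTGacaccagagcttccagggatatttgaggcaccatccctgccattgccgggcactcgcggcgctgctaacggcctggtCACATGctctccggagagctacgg
NPPC: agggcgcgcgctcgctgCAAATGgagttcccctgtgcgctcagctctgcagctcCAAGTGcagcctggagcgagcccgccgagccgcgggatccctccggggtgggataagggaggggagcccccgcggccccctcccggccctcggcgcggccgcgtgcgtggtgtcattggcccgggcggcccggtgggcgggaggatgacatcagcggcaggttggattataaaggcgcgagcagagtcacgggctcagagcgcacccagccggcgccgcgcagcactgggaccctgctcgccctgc
EPHB1: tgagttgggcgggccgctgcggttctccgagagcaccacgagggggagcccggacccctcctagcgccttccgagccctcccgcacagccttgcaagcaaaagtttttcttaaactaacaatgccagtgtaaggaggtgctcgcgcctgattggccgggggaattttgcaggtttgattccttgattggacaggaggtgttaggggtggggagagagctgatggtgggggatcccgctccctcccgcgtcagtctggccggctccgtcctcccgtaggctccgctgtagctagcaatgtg
IGFBP3: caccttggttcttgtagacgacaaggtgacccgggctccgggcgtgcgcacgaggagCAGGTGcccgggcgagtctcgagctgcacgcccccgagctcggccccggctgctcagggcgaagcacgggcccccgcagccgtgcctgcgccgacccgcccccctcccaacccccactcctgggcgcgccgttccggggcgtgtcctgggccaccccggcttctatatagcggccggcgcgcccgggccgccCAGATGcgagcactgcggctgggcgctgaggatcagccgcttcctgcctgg
The STC2 window holds 3 E-boxes and the NPPC window 2. IGFBP3 also has 2, of which CAGATG is the other strand of CATCTG, and EPHB1 has 0. E-boxes of the general form are common. Among genes tested, 6464 had a window, and 58.5% of these held a CANNTG, against 53.6% of 194 windows of genes called higher and 61.5% of 169 of genes called lower. CATCTG, on either strand, was in 8.18% of all windows, 11.9% of those of genes called higher and 8.88% of those of genes called lower. A match is a description of the letters and not a binding site.

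The insulin-like growth factor (IGF) axis changed at its extracellular regulators. IGF binding proteins hold IGFs outside the cell, the protease PAPPA frees the growth factor by cutting them, and stanniocalcins block PAPPA. Of 9 tested genes of this group, 2 rose and 2 fell (median log2 −0.06; −0.014 over all genes tested). IGFBP5 was at 48, 47.5 and 49.2 FPKM with Luciferase sgRNA and at 30.3, 26.3 and 26.7 FPKM with HAND1 sgRNA (log2 −0.78, SE 0.064, adjusted p = 6.48e-05). Together with STC2 it made up the falls, whereas IGFBP3 rose. IGF2, the growth factor itself, was at 813, 787 and 752 FPKM and at 978, 979 and 988 FPKM (log2 0.32, SE 0.061, adjusted p = 0.0105). It was not called when HAND1 sgRNA replicate 3 was left out (adjusted p = 0.06), with quantile normalization (0.0542) and with only both compared groups in the fit (0.0553). IGFBP2 (−0.01, 95% interval −0.20 to 0.17) and IGFBP7 (−0.14, −0.33 to 0.06), also abundant, were not called.

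ERK signalling is held in check by proteins that its own activity induces, among them dual-specificity phosphatases (DUSP), Sprouty (SPRY) and SPRED proteins. The list of feedback inhibitors used here also holds Tribbles pseudokinases (TRIB), which are not established inhibitors of ERK. Of 23 genes of this list tested, 6 fell, TRIB1 and TRIB2 among them, and 1 rose (median log2 −0.17). The higher count was 0 without HAND1 sgRNA replicate 1 or 3 or Luciferase sgRNA replicate 2. DUSP6, the phosphatase of ERK, was at 181, 185 and 177 FPKM with Luciferase sgRNA and at 76.7, 75.2 and 80.3 FPKM with HAND1 sgRNA (log2 −1.22, SE 0.05, adjusted p = 7.78e-07). SPRY4 was at 166, 169.6 and 159.6 FPKM and at 97.7, 96.9 and 98.9 FPKM (log2 −0.75, SE 0.047, adjusted p = 1.30e-05). TRIB1 fell from 20.2 ± 1.49 to 11.4 ± 0.244 FPKM (log2 −0.77, adjusted p = 7.25e-05). TRIB2 fell from 22.8 ± 1.38 to 15.5 ± 0.646 FPKM (log2 −0.53, adjusted p = 0.00128). PHLDA1, a pleckstrin-domain protein, fell from 51.1 ± 1.36 to 35 ± 1.63 FPKM (log2 −0.53, adjusted p = 1.58e-04). As in every called gene, the groups of these 5 did not overlap. DUSP5, a dual-specificity phosphatase, also fell, from 13.1 ± 0.631 to 9.89 ± 1.06 FPKM (log2 −0.38, adjusted p = 0.0273). The call of DUSP5 was lost in 6 of 19 alternatives. The Sprouty genes did not move as 1 block. SPRY2, the most abundant, was at 277 FPKM with Luciferase sgRNA and 293 FPKM with HAND1 sgRNA (log2 0.08, 95% interval −0.04 to 0.20), SPRY1 at 50.7 and 58.4 FPKM (0.20, 0.07 to 0.33), and SPRED2 at 52.9 and 49.1 FPKM (−0.11, −0.23 to 0.01). None of these 3 was called.

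The ETS factors ETV4 and ETV5, transcribed in response to ERK in many cells, fell by a smaller amount. ETV4 was at 34, 33.4 and 33.1 FPKM and at 28, 28.1 and 27 FPKM (log2 −0.27, adjusted p = 0.00659), and ETV5 at 114, 108 and 116 FPKM and at 93.7, 86.5 and 92.7 FPKM (log2 −0.30, adjusted p = 0.0054). ETV1, the ETS factor of interstitial cells of Cajal, was at 42.2, 39.4 and 37.4 FPKM and at 40.8, 39.8 and 41.8 FPKM (log2 0.04, 95% interval −0.09 to 0.18) and was not called. Of 17 ETS factors tested 2 fell and 0 rose (11.8% called, beside 6.6% of all genes tested).

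Immediate early genes, whose transcription follows a growth signal within minutes, moved in both directions. Of 23 tested, 5 rose and 4 fell (39.1% called, beside 6.6% of all genes tested). EGR1, a zinc finger transcription factor, was at 65.1, 68.7 and 68.1 FPKM with Luciferase sgRNA and at 21.6, 21.1 and 27.9 FPKM with HAND1 sgRNA (log2 −1.49, SE 0.099, adjusted p = 1.81e-05). IER2 was at 73.3, 67.2 and 92.4 FPKM and at 43.4, 40.4 and 46.7 FPKM (log2 −0.81, SE 0.11, adjusted p = 0.00181), and JUNB, a subunit of the factor AP-1, fell from 19.7 ± 1.2 to 12.2 ± 0.57 FPKM (log2 −0.65, adjusted p = 0.00188). The fall of EGR1 was the deepest of these. MYCN, a MYC family transcription factor, fell from 134 ± 2.25 to 77.5 ± 4.56 FPKM (log2 −0.78, adjusted p = 2.73e-05). FOSL2, another AP-1 subunit, rose from 2.51 ± 0.206 to 4.76 ± 0.527 FPKM (log2 0.71, adjusted p = 0.00229). NAB2, a co-repressor that binds EGR1, rose from 9.99 ± 0.946 to 15.8 ± 1.22 FPKM (log2 0.62, adjusted p = 0.0012). These rises of FOSL2 and NAB2 stood against the falls of EGR1, IER2 and JUNB. ZFP36L2, an RNA-decay protein, rose from 46.7 ± 1.36 to 66.1 ± 3.42 FPKM (log2 0.49, adjusted p = 4.64e-04). BTG2, an antiproliferative gene, rose by less (log2 0.30, adjusted p = 0.00587).

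KIT, the receptor tyrosine kinase mutated in most GIST, was at 216, 215 and 196 FPKM with Luciferase sgRNA and at 156, 159 and 165 FPKM with HAND1 sgRNA (log2 −0.38, SE 0.059, adjusted p = 0.00336). Under quantile normalization KIT was not called (log2 −0.28, adjusted p = 0.129). Its ligand KITLG, stem cell factor, fell from 5.07 ± 0.238 to 3.11 ± 0.0146 FPKM (log2 −0.56, adjusted p = 0.00209). Among 21 receptor tyrosine kinases and ligands, 3 rose and 3 fell (28.6% called, beside 6.6% of all genes tested). ERBB3 rose from 7.74 ± 0.336 to 12.6 ± 0.92 FPKM (log2 0.64, adjusted p = 0.00198). EGFR rose from 4.25 ± 0.148 to 6.16 ± 0.317 FPKM (log2 0.45, adjusted p = 0.00599). PDGFRA, the receptor mutated in some GIST without a KIT mutation, was not called (log2 0.06, 95% interval −0.07 to 0.20), and neither was FGFR1 (−0.03, −0.16 to 0.10).

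Of 15 genes that mark GIST and interstitial cells of Cajal, 7 rose and 4 fell, so that the group did not move one way (median log2 0.07). RASL11A, a RAS-like protein, was at 201, 213 and 218 FPKM with Luciferase sgRNA and at 97.5, 111 and 105 FPKM with HAND1 sgRNA (log2 −1.01, SE 0.062, adjusted p = 1.14e-05). GPR20, an orphan receptor of GIST, was at 84.9, 86.3 and 73.5 FPKM and at 45.8, 43.6 and 46 FPKM (log2 −0.84, SE 0.076, adjusted p = 1.25e-04). PRKCQ, protein kinase C theta, used as a diagnostic marker of GIST, fell from 6.84 ± 0.232 to 3.67 ± 0.149 FPKM (log2 −0.75, adjusted p = 3.26e-04). These 3 falls stood beside rises of other markers. CADM1, a cell adhesion molecule, was at 26.5, 24.3 and 22.3 FPKM and at 48.1, 50.3 and 56.2 FPKM (log2 1.05, SE 0.081, adjusted p = 4.38e-05). PLAT, tissue plasminogen activator, was among the most abundant transcripts and was at 2201, 2213 and 2355 FPKM and at 3205, 3124 and 3152 FPKM (log2 0.49, SE 0.081, adjusted p = 0.00508). The call of PLAT was lost without the filter on low values (adjusted p = 0.0741). CD34 (1679.8 and 1762 FPKM; log2 0.07, 95% interval −0.09 to 0.23) and ANO1 (165 and 170.1 FPKM; 0.04, −0.06 to 0.15) were not called. In bulk RNA a smaller share of cells with a transcript and less of it per cell cannot be told apart.

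**Figure D3:**
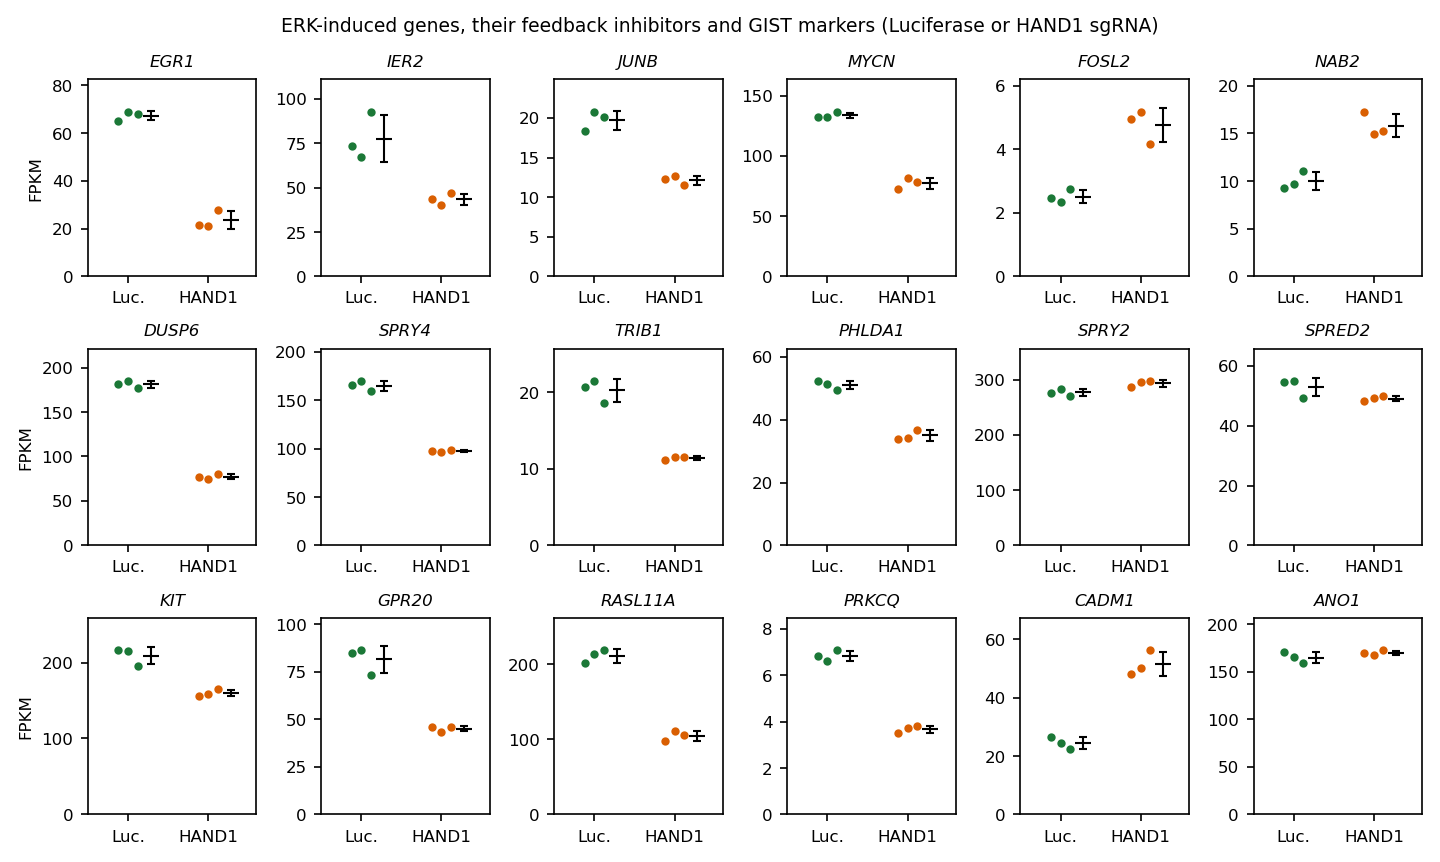
Each panel is 1 gene (immediate early genes, ERK feedback inhibitors, KIT and other GIST markers), with FPKM from 0 on the y axis and the sgRNA on the x axis. Points are the 3 libraries of a group, in the order of their replicate numbers, and the bar beside them is their mean ± SD. DUSP6, SPRY4, EGR1, RASL11A and GPR20 sit lower in all 3 libraries with HAND1 sgRNA, while CADM1 sits higher and SPRY2, SPRED2 and ANO1, which were not called, sit near the control level.

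Among other transcription factors, the bHLH group held 19 tested genes, of which 3 fell, HAND1 included, and 1 rose. HES1, a repressor and a target of Notch signalling, was at 52.6, 52 and 59.6 FPKM with Luciferase sgRNA and at 26.4, 31.1 and 29.2 FPKM with HAND1 sgRNA (log2 −0.90, SE 0.081, adjusted p = 1.18e-04). MSC, musculin, rose from 19.9 ± 0.681 to 26.1 ± 1.37 FPKM (log2 0.38, adjusted p = 0.00819). The E proteins TCF3 (log2 0.02, 95% interval −0.08 to 0.13) and TCF12 (0.04, −0.12 to 0.19), with which HAND1 pairs, were not called, and neither was TCF21 (−0.05, −0.18 to 0.07), a mesenchymal bHLH factor at 324 FPKM in the controls.

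Of 23 transcription factors of GIST and gut mesenchyme tested, 6 were called higher and 1 lower, with 12 of the differences above 0 and 11 below (median log2 0.02), and the higher count was 3 without HAND1 sgRNA replicate 1 or 3 or Luciferase sgRNA replicate 2. The lower count was 2 without ETV1 sgRNA replicate 1 or Luciferase sgRNA replicate 3. PITX1, a homeobox factor of the hindlimb, was at 351, 330.3 and 367 FPKM with Luciferase sgRNA and at 475, 526 and 508 FPKM with HAND1 sgRNA (log2 0.52, SE 0.064, adjusted p = 8.33e-04). NR2F2, an orphan nuclear receptor, rose from 14.1 ± 1.12 to 20.1 ± 1.78 FPKM (log2 0.48, adjusted p = 0.00534). AFF3 was the member that fell. FOXF1 (log2 −0.16, 95% interval −0.28 to −0.05), OSR1 (0.17, 0.06 to 0.29) and HIC1 (−0.02, −0.14 to 0.10), all abundant factors of gut mesenchyme, were not called. FOXF1 was called lower without Luciferase sgRNA replicate 3 (log2 −0.19, adjusted p = 0.0267). Among 25 HOX genes, which set position along the body axis, 5 fell and 0 rose (median log2 −0.19). The lower count was 3 without HAND1 sgRNA replicate 3 or Luciferase sgRNA replicate 2, and the higher count 1 without ETV1 sgRNA replicate 3 or HAND1 sgRNA replicate 1 or Luciferase sgRNA replicate 3. HOXA11 was at 85.3, 80.5 and 78.7 FPKM and at 61.1, 62.7 and 62.9 FPKM (log2 −0.38, SE 0.054, adjusted p = 0.00208), HOXB13 fell from 16.9 ± 0.814 to 10.6 ± 0.812 FPKM (log2 −0.63, adjusted p = 6.63e-04). HOXB9 fell from 8.79 ± 0.484 to 5.49 ± 0.491 FPKM (log2 −0.60, adjusted p = 0.00344). Of 8 T-box factors tested, with 6 more below the filter, only TBX2 was called. TBX3, its close relative, was at 9.53 and 11.2 FPKM (0.21, 0.03 to 0.40).

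Natriuretic peptides act through receptors that make cyclic GMP (cGMP), nitric oxide through a soluble guanylyl cyclase, and phosphodiesterases (PDE) break the messenger down. Of 13 tested genes of this system, 4 rose and 4 fell. The ligand NPPC fell, as described above, and so did NPR3, the clearance receptor, which was at 154, 152 and 144 FPKM with Luciferase sgRNA and at 111, 104 and 111 FPKM with HAND1 sgRNA (log2 −0.46, SE 0.054, adjusted p = 6.36e-04). PDE2A, a phosphodiesterase stimulated by cGMP, fell from 10.004 ± 0.691 to 4.94 ± 0.313 FPKM (log2 −0.89, adjusted p = 1.01e-04). Both subunits of soluble guanylyl cyclase rose. GUCY1A3 rose from 30.5 ± 0.945 to 44.4 ± 0.394 FPKM (log2 0.53, adjusted p = 3.12e-04). GUCY1B3 rose from 82.9 ± 4.27 to 104 ± 0.816 FPKM (log2 0.32, adjusted p = 0.0036). PDE3A, a phosphodiesterase inhibited by cGMP and abundant in interstitial cells of Cajal, rose from 59.2 ± 4.54 to 78.2 ± 0.96 FPKM (log2 0.40, adjusted p = 0.00366).

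In the bone morphogenetic protein (BMP) pathway, 6 of 27 tested genes rose and 3 fell, and the lower count was 1 without HAND1 sgRNA replicate 3 or Luciferase sgRNA replicate 2. BMP4, a secreted ligand, was at 108, 114 and 114 FPKM with Luciferase sgRNA and at 189, 194 and 188 FPKM with HAND1 sgRNA (log2 0.76, SE 0.057, adjusted p = 3.73e-05). BMP7, another ligand, rose from 1.86 ± 0.101 to 4.25 ± 0.437 FPKM (log2 0.87, adjusted p = 5.09e-04). The ligand BMP2 went the other way and fell from 2.28 ± 0.372 to 1.06 ± 0.376 FPKM (log2 −0.69, adjusted p = 0.0196). The call of BMP2 was lost in 5 of 18 alternatives. FST, follistatin, rose from 0.613 ± 0.215 to 1.88 ± 0.617 FPKM (log2 0.82, adjusted p = 0.0206), a call lost in 4 of 18. TWSG1, an extracellular modulator of BMP activity, rose from 18.9 ± 0.547 to 26.2 ± 1.46 FPKM (log2 0.45, adjusted p = 0.00117). TMEM100 fell as above. ID1, a target of BMP signalling and an inhibitor of E proteins, was at 108, 114 and 135 FPKM and at 83.7, 93.3 and 88.7 FPKM (log2 −0.42, SE 0.082, adjusted p = 0.013). It was not called when HAND1 sgRNA replicate 1 was left out (adjusted p = 0.0589) or 3 (0.0519). The receptors BMPR1A (log2 0.21, 95% interval 0.06 to 0.36) and ENG (0.13, −0.01 to 0.26) were not called.

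Transforming growth factor beta (TGF-beta) is stored in the matrix in a latent form bound by LTBP proteins. Of 20 genes of its pathway and targets, 6 rose and 3 fell. LTBP1 rose from 1.71 ± 0.119 to 4.31 ± 0.627 FPKM (log2 0.96, adjusted p = 5.78e-04). LTBP3 rose from 24.4 ± 2.02 to 31.5 ± 0.7 FPKM (log2 0.36, adjusted p = 0.00892). The ligand TGFB3 rose from 2.46 ± 0.209 to 4.64 ± 0.668 FPKM (log2 0.70, adjusted p = 0.0061). Storage proteins and a ligand of the pathway were thus higher. The receptor TGFBR2 rose from 20.6 ± 0.803 to 28.2 ± 1.64 FPKM (log2 0.44, adjusted p = 0.00163). TGFBI, a secreted protein named for its induction by TGF-beta, went the other way and fell from 6.41 ± 0.525 to 2.74 ± 0.293 FPKM (log2 −0.99, adjusted p = 0.00278). TSC22D1, another gene named for TGF-beta stimulation, also fell from 76.5 ± 2.96 to 50.9 ± 3.44 FPKM (log2 −0.58, adjusted p = 2.30e-04). TGFB1 was not called (log2 0.04, 95% interval −0.11 to 0.19).

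WNT pathway genes were called higher 7 times and lower 1 time among 34 tested (median log2 0.02). That is 23.5% called, beside 6.6% of all genes tested. WNT11, a ligand, was at 4.59, 3.54 and 4.52 FPKM with Luciferase sgRNA and at 12.3, 12.2 and 9.69 FPKM with HAND1 sgRNA (log2 1.25, SE 0.12, adjusted p = 2.21e-04), and RSPO2, an enhancer of WNT signals, at 2.38, 0.945 and 1.15 and 4.22, 3.9 and 3.87 FPKM (log2 1.05, SE 0.19, adjusted p = 0.00791). The antagonists DKK4 and DKK2 rose too. DKK4 rose from 92.7 ± 2.82 to 161 ± 9.61 FPKM (log2 0.79, adjusted p = 1.18e-04). DKK2 rose from 19.2 ± 0.858 to 24.5 ± 1.14 FPKM (log2 0.34, adjusted p = 0.00563). APCDD1, an inhibitor that binds WNT and its receptor, rose from 2.45 ± 0.379 to 8.21 ± 0.793 FPKM (log2 1.42, adjusted p = 3.91e-04). SFRP1, a secreted WNT antagonist, was the member that fell, from 116, 115 and 119.9 to 49.1, 42.9 and 49.3 FPKM (log2 −1.30, SE 0.061, adjusted p = 1.87e-06). Antagonists were thus found on both sides. CTNNB1, beta-catenin, was not called (log2 0.06, 95% interval −0.05 to 0.17).

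In the Hedgehog pathway 2 of 12 tested genes rose and 1 fell (2 without ETV1 sgRNA replicate 2). That is 25% called, beside 6.6% of all genes tested. GAS1, a co-receptor, was at 9.52, 8.63 and 8.88 FPKM and at 17.6, 18.3 and 17.9 FPKM (log2 0.92, SE 0.067, adjusted p = 2.86e-05). GLI3, a transcription factor of the pathway, rose from 18.2 ± 1.5 to 25 ± 0.228 FPKM (log2 0.44, adjusted p = 0.00232), and DISP1, which releases the ligand, fell from 42.6 ± 2.96 to 33.9 ± 0.562 FPKM (log2 −0.32, adjusted p = 0.0107). Calls in this pathway went both ways. PTCH1, the receptor and a common target, was not called (log2 −0.09, 95% interval −0.23 to 0.06).

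Genes of cell guidance changed in both directions. EFNB2, a ligand of EPHB receptors, rose from 27.9 ± 1.88 to 40.3 ± 1.79 FPKM (log2 0.52, adjusted p = 0.0016) beside EPHB1, the 2 called members of 15 ephrins and Eph receptors tested. Of the others 1 was called lower without HAND1 sgRNA replicate 2 or Luciferase sgRNA replicate 2 or 3. Among 29 semaphorin, plexin, netrin and slit genes, 3 rose and 4 fell. NRP2, a neuropilin receptor of semaphorins, was at 21.4, 19.6 and 16.8 FPKM with Luciferase sgRNA and at 9.16, 9.02 and 10.6 FPKM with HAND1 sgRNA (log2 −0.93, SE 0.1, adjusted p = 3.46e-04), and SEMA7A, a membrane-anchored semaphorin, at 7.78, 7.82 and 8.7 and 3.59, 3.09 and 3.64 FPKM (log2 −1.04, SE 0.081, adjusted p = 4.54e-05). UNC5B, a netrin receptor, fell from 10.007 ± 0.641 to 6.88 ± 0.521 FPKM (log2 −0.48, adjusted p = 0.00347), and SLIT2, a repellent ligand, rose from 4.84 ± 0.489 to 7.7 ± 0.518 FPKM (log2 0.58, adjusted p = 0.00347).

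Among genes of the extracellular matrix, calls on the higher side outnumbered those on the lower side in each of 5 groups. Of 31 collagens and collagen-modifying genes 12 rose and 0 fell (median log2 0.15). Of 23 proteoglycan and basement membrane genes 8 rose and 0 fell (0.25), and the higher count was 5 without HAND1 sgRNA replicate 3. Among 13 matricellular genes, whose products modulate contact between cell and matrix, 7 rose and 2 fell (0.36). Among 13 microfibril and elastic fibre genes 3 rose and 1 fell (0.10), and the lower count was 2 without HAND1 sgRNA replicate 1 or Luciferase sgRNA replicate 3. Among 29 proteases and their inhibitors 9 rose and 0 fell (0.17). The share called higher over all genes tested was 3.67%. The lists overlap each other in a few genes and were chosen with earlier results of these data known, so the 5 groups are not separate evidence. The lower count of collagens was 1 without ETV1 sgRNA replicate 3, and that of proteoglycan and basement membrane genes 1 without Luciferase sgRNA replicate 1.

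COL4A1 and COL4A2, the chains of the main basement membrane collagen, rose together. COL4A1 was at 27.4, 29.7 and 32 FPKM with Luciferase sgRNA and at 47.3, 41.9 and 46.9 FPKM with HAND1 sgRNA (log2 0.59, SE 0.07, adjusted p = 6.77e-04), and COL4A2 at 29.5, 30.8 and 31 and 45.2, 39.7 and 42.3 FPKM (log2 0.46, SE 0.061, adjusted p = 0.00141). COL6A1 rose from 155 ± 3.35 to 191 ± 2.48 FPKM (log2 0.31, adjusted p = 0.00496). COL6A2 rose from 35 ± 1.73 to 49.1 ± 3.41 FPKM (log2 0.48, adjusted p = 0.00163). COL6A1 and COL6A2, chains of collagen VI, were thus both higher, and other chains of this collagen are not described here. COL5A1 (log2 0.45, adjusted p = 0.00191) and COL5A2 (log2 0.50, adjusted p = 0.0047), which regulate fibril width, also rose. COL15A1, a collagen beneath basement membranes, rose from 9.51 ± 0.839 to 18.9 ± 0.787 FPKM (log2 0.92, adjusted p = 9.77e-05), and LOXL1, a crosslinking enzyme, rose from 16 ± 1.35 to 24.5 ± 1.14 FPKM (log2 0.59, adjusted p = 0.0029). COL3A1, the most abundant member of the collagen list, was at 779 and 848 FPKM and was not called (0.12, 95% interval −0.01 to 0.26), and SERPINH1, the collagen chaperone, was not called either (0.05, −0.13 to 0.23).

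DCN, decorin, a small proteoglycan that binds collagen, was at 70.4, 64.2 and 68.6 FPKM with Luciferase sgRNA and at 128, 132 and 127 FPKM with HAND1 sgRNA (log2 0.92, SE 0.05, adjusted p = 4.82e-06). BGN, biglycan, its relative, rose from 9.18 ± 0.873 to 15.5 ± 1.04 FPKM (log2 0.70, adjusted p = 5.09e-04), whereas LUM, lumican, at 293 and 299 FPKM, was not called (0.03, 95% interval −0.14 to 0.19). The syndecans SDC1 (log2 0.61, adjusted p = 3.25e-04) and SDC3 (log2 0.32, adjusted p = 0.00794) and the laminin chain LAMB1 (log2 0.35, adjusted p = 0.00626) rose. THBS1, thrombospondin, was at 88.9, 83.5 and 77.3 FPKM and at 155, 156 and 162 FPKM (log2 0.91, SE 0.061, adjusted p = 1.81e-05). POSTN, periostin, a matricellular protein of fibroblasts, rose from 0.807 ± 0.114 to 3.35 ± 0.95 FPKM (log2 1.25, adjusted p = 8.31e-04). MATN2, a matrilin, rose from 5.83 ± 0.642 to 13.6 ± 0.545 FPKM (log2 1.09, adjusted p = 2.86e-05). THBS1 and DCN combined a large change with a high level, while POSTN, MATN2 and BGN were low in the controls.

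FBN1, fibrillin 1, the main protein of microfibrils, was called lower, at 48.2, 47.2 and 40.3 FPKM with Luciferase sgRNA and at 25.1, 23.4 and 22.5 FPKM with HAND1 sgRNA (log2 −0.90, SE 0.082, adjusted p = 1.22e-04). ELN, elastin, rose from 127 ± 11.3 to 166 ± 3.12 FPKM (log2 0.38, adjusted p = 0.00708). EFEMP1, a fibulin, rose from 2.62 ± 0.327 to 5.69 ± 0.548 FPKM (log2 0.89, adjusted p = 0.00159). SPARCL1, a matricellular protein, was at 246, 241 and 224 FPKM and at 183, 173 and 185 FPKM (log2 −0.39, SE 0.056, adjusted p = 0.00224), but was not called under quantile normalization (adjusted p = 0.0936). Among proteases MMP1, a collagenase, rose from 5.93 ± 0.338 to 15.8 ± 1.33 FPKM (log2 1.28, adjusted p = 7.79e-04). ADAMTS8 rose from 1.32 ± 0.0319 to 4.69 ± 0.453 FPKM (log2 1.29, adjusted p = 6.48e-05). Their inhibitors rose as well. TIMP1 rose from 70.5 ± 3.19 to 87.5 ± 4.42 FPKM (log2 0.31, adjusted p = 0.00693). TIMP2 rose from 53.1 ± 1.53 to 79.2 ± 1.58 FPKM (log2 0.57, adjusted p = 5.77e-04). TIMP3 rose from 45.4 ± 1.09 to 66.5 ± 2.36 FPKM (log2 0.54, adjusted p = 1.18e-04). Proteases and the inhibitors of proteases were thus higher in the same libraries.

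**Figure D4:**
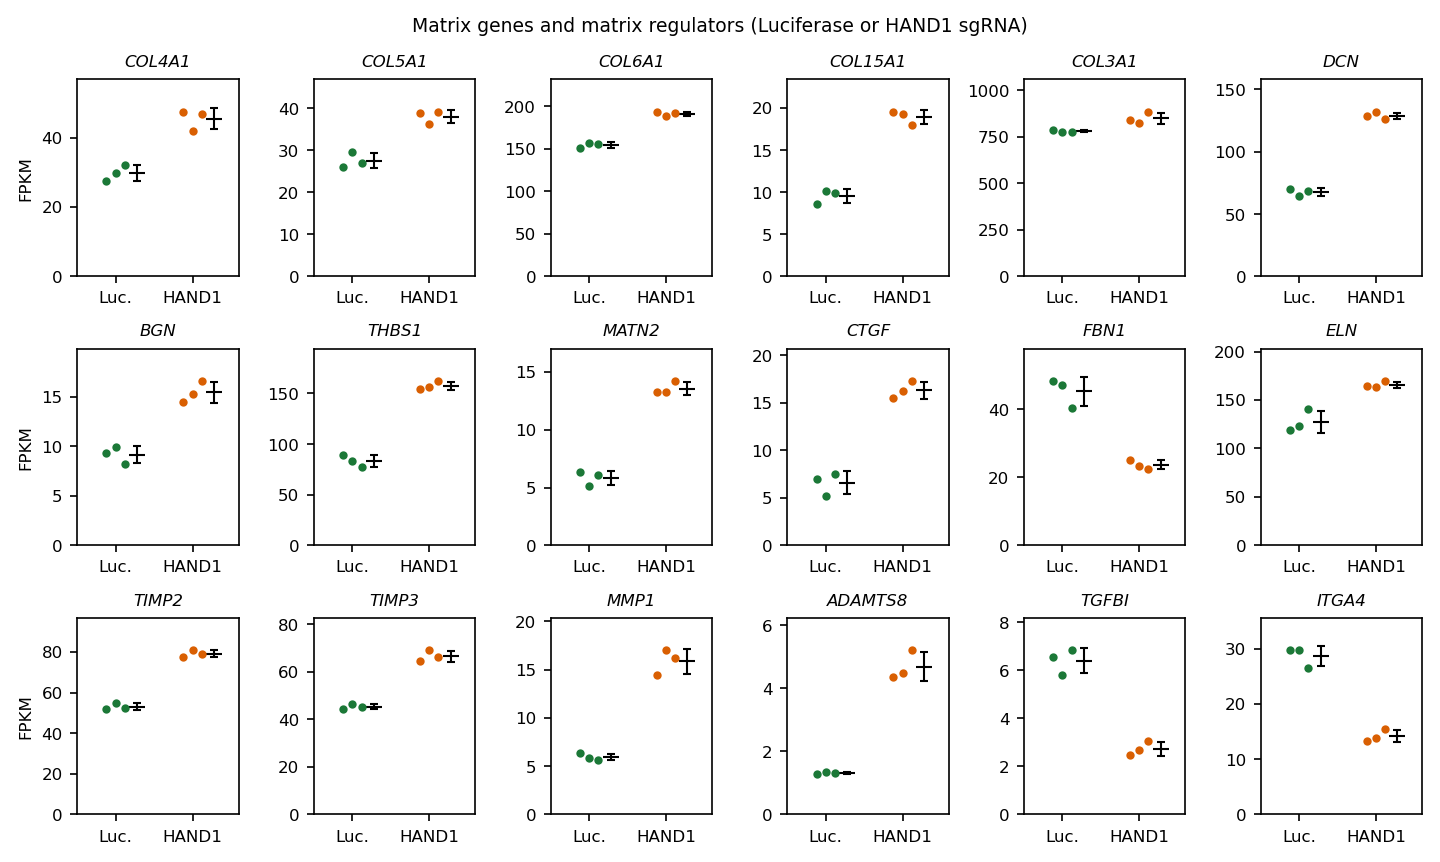
Each panel is 1 matrix gene or regulator, with FPKM from 0 on the y axis and the sgRNA on the x axis; points are the 3 libraries of a group and the bar beside them is their mean ± SD. DCN, THBS1, COL15A1 and MMP1 sit higher in all 3 libraries with HAND1 sgRNA, and FBN1, TGFBI and ITGA4 sit lower.

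Targets of the coactivator YAP and its partner TEAD factors include matrix genes. Of 23 tested, 7 rose and 0 fell (median log2 0.02), and the lower count was 1 without ETV1 sgRNA replicate 1. CTGF, a matricellular protein, was at 7.02, 5.2 and 7.48 FPKM with Luciferase sgRNA and at 15.5, 16.2 and 17.3 FPKM with HAND1 sgRNA (log2 1.21, SE 0.12, adjusted p = 2.12e-04). AMOTL2, an angiomotin that retains YAP in the cytoplasm, rose from 14.5 ± 0.789 to 21.1 ± 0.54 FPKM (log2 0.51, adjusted p = 0.00133). WWTR1, the YAP relative TAZ, rose from 51.7 ± 3.35 to 65.1 ± 3.29 FPKM (log2 0.33, adjusted p = 0.00928). MYOF, myoferlin, rose from 24.4 ± 2.08 to 33.7 ± 0.754 FPKM (log2 0.46, adjusted p = 0.00293). LATS2, a kinase that restrains YAP, was not called (0.16, 95% interval 0.03 to 0.30).

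Among integrins, the receptors for matrix, 2 of 11 rose and 1 fell. ITGA4 was at 29.7, 29.7 and 26.5 FPKM and at 13.3, 13.8 and 15.4 FPKM (log2 −0.97, SE 0.075, adjusted p = 4.54e-05), while ITGA11, a collagen receptor subunit, rose from 8.17 ± 0.713 to 12.9 ± 0.71 FPKM (log2 0.60, adjusted p = 0.00181). ITGA9 rose from 6.93 ± 0.441 to 11.4 ± 0.444 FPKM (log2 0.64, adjusted p = 4.45e-04). Of 26 cell junction genes 4 rose and 2 fell, with GJB2, a gap junction connexin, rising from 11.6 ± 0.3 to 18.4 ± 1.19 FPKM (log2 0.62, adjusted p = 0.00617) and CGNL1 falling as above. The lower count of junction genes was 1 without HAND1 sgRNA replicate 1 or 2 or 3 or Luciferase sgRNA replicate 1. Among 19 contractile genes of smooth muscle 3 rose and 1 fell, and the lower count was 0 without HAND1 sgRNA replicate 2 or Luciferase sgRNA replicate 1 or 2. TAGLN, transgelin, was at 1.76, 2.23 and 3.14 FPKM with Luciferase sgRNA and at 7.35, 7.4 and 5.98 FPKM with HAND1 sgRNA (log2 1.24, SE 0.17, adjusted p = 0.00193), CAV1, caveolin, rose from 3.97 ± 0.436 to 6.71 ± 0.645 FPKM (log2 0.63, adjusted p = 0.00784). CNN2, a calponin, rose from 119.8 ± 2.32 to 149.9 ± 5.52 FPKM (log2 0.32, adjusted p = 0.00369). SMTN, smoothelin, was the contractile gene that fell (adjusted p = 0.016), a call lost in 4 of 19 alternatives. The abundant members CALD1 (log2 0.16, adjusted p = 0.163), FLNA (0.09, 0.426) and FHL2 (−0.12, 0.266) were not called. Of 10 fibroblast markers 3 rose and 1 fell, and the lower count was 0 without ETV1 sgRNA replicate 1 or 2 or HAND1 sgRNA replicate 1 or 2 or 3 or Luciferase sgRNA replicate 2. VIM, vimentin, rose from 116 ± 7.12 to 162 ± 7.49 FPKM (log2 0.48, adjusted p = 0.00251) along with DCN and POSTN. THY1, another marker of this list, was the member that fell (adjusted p = 0.038). The call of THY1 was lost in 11 of 19 alternatives.

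Among 37 G protein-coupled receptors and their regulators, 8 rose and 5 fell. The higher count was 5 without ETV1 sgRNA replicate 1 or HAND1 sgRNA replicate 2 or 3 or Luciferase sgRNA replicate 1, and the lower count was 3 without HAND1 sgRNA replicate 2 or 3 or Luciferase sgRNA replicate 2. NPY1R, a neuropeptide Y receptor, fell from 3.04 ± 0.794 to 1.09 ± 0.205 FPKM (log2 −0.94, adjusted p = 0.0039). HRH1, a histamine receptor, rose from 1.23 ± 0.231 to 2.98 ± 0.324 FPKM (log2 0.84, adjusted p = 0.00263). S1PR3, a sphingosine-1-phosphate receptor, rose from 53.5 ± 1.99 to 75.1 ± 2.09 FPKM (log2 0.48, adjusted p = 2.30e-04). The regulators of G protein signalling went opposite ways, RGS2 up and RGS5 down. RGS2 rose from 41.9 ± 2.15 to 57.1 ± 4.74 FPKM (log2 0.44, adjusted p = 0.00855). RGS5 fell from 11.5 ± 0.815 to 8.08 ± 0.267 FPKM (log2 −0.46, adjusted p = 0.00394). Of 31 ion channel genes 1 rose and 1 fell (lower, 0 without HAND1 sgRNA replicate 1 or 2). With 6.45% called, this list was near the 6.6% of all genes tested. KCNJ8, a subunit of an ATP-sensitive potassium channel, was the gene that rose, from 35.3 ± 1.39 to 50.4 ± 2.2 FPKM (log2 0.50, adjusted p = 0.00235).

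Of 20 cytokine and NF-kB genes tested 5 fell and 2 rose, while 13 of the differences were above 0 and 7 below (median log2 0.06). PTGS2, the inducible prostaglandin synthase, was at 19.7, 20.5 and 19.1 FPKM with Luciferase sgRNA and at 10.8, 11.7 and 11.6 FPKM with HAND1 sgRNA (log2 −0.75, SE 0.06, adjusted p = 5.45e-05). TNFAIP3, a feedback inhibitor of NF-kB, fell from 6.44 ± 0.255 to 2.87 ± 0.135 FPKM (log2 −0.94, adjusted p = 4.17e-05). NFKBIZ fell from 11.8 ± 0.88 to 8.03 ± 0.752 FPKM (log2 −0.51, adjusted p = 0.00442). The chemokine CCL2 fell from 25.9 ± 2.6 to 16.7 ± 2.04 FPKM (log2 −0.61, adjusted p = 0.00295). Of these falls, only TNFAIP3 is described here as a feedback inhibitor of NF-kB. CXCL12, another chemokine, rose from 10.1 ± 0.7 to 17.4 ± 0.674 FPKM (log2 0.73, adjusted p = 3.32e-04), as did the receptor chain IL13RA1 (log2 0.36, adjusted p = 0.00193). NFKBIA, a cytoplasmic inhibitor of NF-kB, was not called (0.17, 95% interval −0.01 to 0.36). Of 26 interferon response and MHC class I genes 3 rose and 0 fell (11.5% called, beside 6.6% of all genes tested). The higher count was 1 without HAND1 sgRNA replicate 2 or 3. IFIT1, an interferon-induced RNA-binding protein, rose from 9.08 ± 0.455 to 16.4 ± 1.67 FPKM (log2 0.78, adjusted p = 2.37e-04), and B2M, the light chain of MHC class I, was not called (−0.01, −0.21 to 0.18).

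The shares of cell cycle genes called stood at 0% for D-type cyclins and their partners, 5% for S phase and 7.5% for G2 and mitosis, beside 6.6% of all genes tested. Of 18 D-type cyclins, CDKs and CDK inhibitors limma called 0 higher and 0 lower, and 3 had an unadjusted p under 0.05. Without Luciferase sgRNA replicate 3 limma called 1 higher. CDK4 was at 165 and 146 FPKM (log2 −0.17, 95% interval −0.35 to 0.02) and CCND3 at 101 and 103 FPKM (0.04, −0.08 to 0.15). Of 40 S phase genes 2 fell, GINS4 (log2 −0.27, adjusted p = 0.0094) and RFC2 (log2 −0.28, adjusted p = 0.00929), both parts of the replication machinery, and 0 rose. PCNA (−0.0029, −0.14 to 0.14) and TK1 (0.09, −0.08 to 0.27) were not called. Of 40 genes of G2 and mitosis 2 fell and 1 rose. The lower count was 0 without HAND1 sgRNA replicate 1 or 3 or Luciferase sgRNA replicate 2 and 1 without ETV1 sgRNA replicate 1 or 2 or HAND1 sgRNA replicate 2 or Luciferase sgRNA replicate 1, and the higher count was 0 without ETV1 sgRNA replicate 1 or 2 or HAND1 sgRNA replicate 1 or 2 or 3 or Luciferase sgRNA replicate 1 or 2 or 3. CCNB1, a mitotic cyclin, was not called (−0.04, −0.15 to 0.06). Of 26 p53 targets 3 rose (11.5%, beside 3.67% of all genes tested) and 0 fell. PLK2 rose from 0.925 ± 0.0905 to 2.49 ± 0.385 FPKM (log2 0.85, adjusted p = 0.00271). BAX, a p53 target that promotes apoptosis, was not called (−0.17, −0.59 to 0.26). It was at 48.8, 48.9 and 89 FPKM with Luciferase sgRNA and at 53, 53.6 and 52.6 FPKM with HAND1 sgRNA. The sign and width of its interval thus rest on Luciferase sgRNA replicate 3, the library that stood apart.

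Of 33 genes of amino acid supply and the stress factor ATF4, 3 fell and 1 rose (12.1% called, beside 6.6% of all genes tested). The higher count was 0 without HAND1 sgRNA replicate 3 or Luciferase sgRNA replicate 2. In this list 29 of the differences were below 0, with a median log2 of −0.14, and of −0.11 without Luciferase sgRNA replicate 3. All 3 HAND1 sgRNA libraries lay below all 3 controls for 16 of these genes (12.7% of all genes tested did so), and 15 had an unadjusted p under 0.05 (20.3% of all genes tested). ASNS, asparagine synthetase, fell from 68.5 ± 2.23 to 55.5 ± 1.12 FPKM (log2 −0.30, adjusted p = 0.00681) and STC2 fell as above, while ATF4 itself was not called (log2 −0.08, 95% interval −0.20 to 0.04). Of 34 sterol and fatty acid synthesis genes 4 fell and 1 rose (median log2 −0.08, and −0.07 without Luciferase sgRNA replicate 3); the lower count was 1 without HAND1 sgRNA replicate 2 or 3 and 2 without Luciferase sgRNA replicate 1 or 2, and the higher count was 0 without HAND1 sgRNA replicate 1 or 2. Of 31 hypoxia and glycolysis genes 2 rose and 0 fell, with a median log2 of −0.13, and of −0.09 without that library. The share called was 6.45%, beside 6.6% of all genes tested. Of the differences 26 were below 0 and 5 above. All 3 HAND1 sgRNA libraries lay below all 3 controls for 13 of these genes and above them for 2. The called rises thus went against the direction of most of the list. EGLN3, an oxygen sensor, rose from 2.62 ± 0.484 to 4.87 ± 0.358 FPKM (log2 0.70, adjusted p = 0.00383). NDRG1 rose from 4.39 ± 0.768 to 6.78 ± 0.162 FPKM (log2 0.54, adjusted p = 0.0109). Of 20 lysosomal proteases and inhibitors, CTSL1 and its pseudogene fell and 0 rose (10% called, beside 6.6% of all genes tested). The higher count was 1 without ETV1 sgRNA replicate 1 or 3 and 3 without Luciferase sgRNA replicate 3. CTSD, cathepsin D, was not called (log2 0.11, −0.01 to 0.22).

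Abundant short transcripts moved with Luciferase sgRNA replicate 3. The median log2 difference of ribosomal protein genes was −0.18 with all libraries and −0.000595 without Luciferase sgRNA replicate 3, and that of oxidative phosphorylation genes was −0.17 and −0.03. Of 58 and 49 genes tested limma called 0 in either list, and 7 and 9 had an unadjusted p under 0.05. For ribosomal proteins the higher count was 1 without Luciferase sgRNA replicate 3 and the lower count 1 without HAND1 sgRNA replicate 2 and 2 without Luciferase sgRNA replicate 1; for oxidative phosphorylation genes the lower count was 1 without HAND1 sgRNA replicate 3 or Luciferase sgRNA replicate 1. Among the 311 genes with transcripts under 1000 nt the median difference was −0.157, and 0.0227 without that library. At 3000 nt and over it was −0.00211 and −0.0109.

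**Figure D5:**
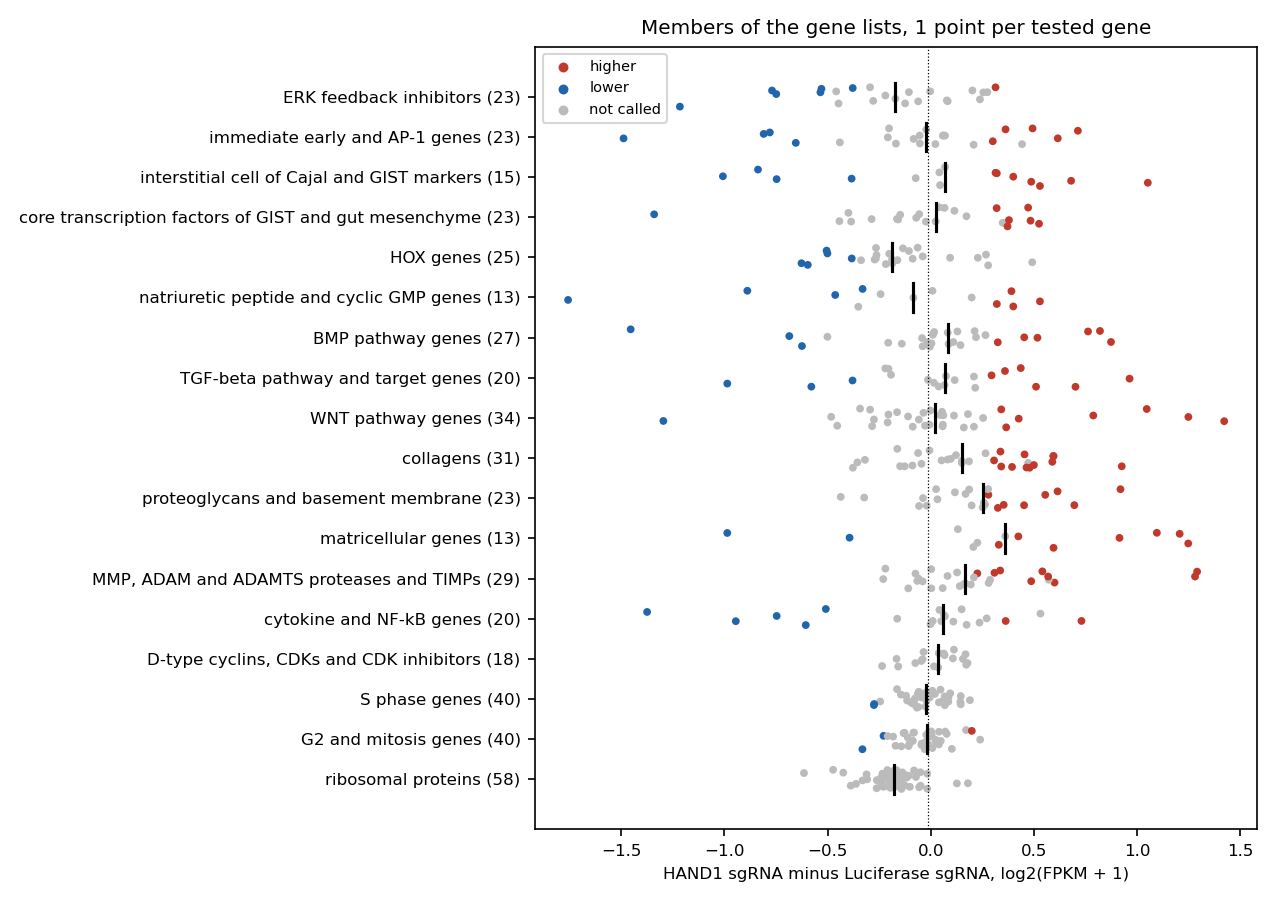
Each row is 1 gene list with its number of tested genes, each point 1 gene at its difference on the log2(FPKM + 1) scale (x axis), coloured by its call, each short bar the list's median, and the dotted line the median of all genes tested. Matrix groups have calls almost wholly on the higher side. The list of ERK feedback inhibitors, which also holds TRIB1 and TRIB2, has them mostly on the lower side. All lists were chosen with earlier results of these data known.

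The same fit compared HAND1 sgRNA with ETV1 sgRNA. It called 460 of 11348 genes (4.05%) different between them, whereas ETV1 sgRNA against Luciferase sgRNA gave 23 calls (0.203%). The count of 460 was 295 and 294 without ETV1 sgRNA replicates 1 and 2, and 271, 291 and 272 without HAND1 sgRNA replicates 1, 2 and 3. Both comparisons with Luciferase sgRNA share its 3 libraries, so values are given side by side. EGR1 averaged 67.3 FPKM with Luciferase sgRNA, 202 FPKM with ETV1 sgRNA and 23.5 FPKM with HAND1 sgRNA, and the difference of HAND1 sgRNA from ETV1 sgRNA was −3.05 (log2, adjusted p = 1.28e-07). DUSP6, at 181, 125 and 77.4 FPKM in the same order, differed by −0.68 (adjusted p = 3.71e-05). STC2 differed by −2.11 (adjusted p = 5.06e-07) and TMEM100 by −1.38 (adjusted p = 1.01e-06), both lower with HAND1 sgRNA. DCN was at 67.7, 93.8 and 129 FPKM and differed by 0.45 (adjusted p = 5.86e-04). KIT was at 209, 207 and 159.9 FPKM (difference −0.37, adjusted p = 0.00549). Some genes described above were also called with ETV1 sgRNA against Luciferase sgRNA. IGFBP3 (adjusted p = 0.00306), DCN (0.00306), MATN2 (0.0389) and DKK2 (0.0324) were higher there too. DUSP6 was lower there too (0.00136), whereas EGR1 was higher (6.56e-05). IGFBP3 averaged 1.78 FPKM with Luciferase sgRNA, 3.99 FPKM with ETV1 sgRNA and 7.28 FPKM with HAND1 sgRNA. Some genes that HAND1 sgRNA changed were not called different from ETV1 sgRNA. NPPC averaged 7.1 FPKM with Luciferase sgRNA, 3.21 FPKM with ETV1 sgRNA and 1.43 FPKM with HAND1 sgRNA. Its difference between the last 2 was −0.80 (95% interval −1.41 to −0.19, adjusted p = 0.174). KCNJ8 was at 35.3, 47 and 50.4 FPKM in the same order (difference 0.10, adjusted p = 0.593). GUCY1B3 was at 82.9, 97.9 and 104 FPKM (0.08, 0.507), and DKK2 at 19.2, 25.2 and 24.5 FPKM (−0.04, 0.828). TRIB1 averaged 11.5 FPKM with ETV1 sgRNA and 11.4 FPKM with HAND1 sgRNA (difference −0.01, 95% interval −0.15 to 0.13), and NAB2 16 and 15.8 FPKM (difference −0.01, −0.19 to 0.16). Beside the Luciferase sgRNA means given above, TRIB1 was thus lower and NAB2 higher with either sgRNA.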

How the data were processed

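PolyA RNA of GIST-T1 was sequenced from non-stranded libraries (NEBNext Ultra II), per the labels' protocols, so overlapping and antisense genes cannot be told apart. The submitters' processing notes name STAR, Cufflinks and hg19, with no tool version; which annotation was used, and whether Cufflinks scaled libraries to each other, is not given in the sources used here. FPKM values were deposited by the authors, 1 per gene symbol and library, and no count model was applied. Of 23610 genes 6473 were at 0 throughout, counting values under 1e-06 as 0, and 28 entries with a spreadsheet date for a symbol were not named. All columns of values belonged to the 9 libraries.

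The 11348 genes that averaged 1 FPKM or more over 9 libraries were fitted as log2(FPKM + 1), a pseudocount of 1 that understates changes of low genes, with limma 3.58.1 in R 4.3.3. The group was the only term, all 9 libraries entered, and the spread followed an intensity trend (degrees of freedom: 6 residual, 4.15 prior). All tests were two-sided, with Benjamini-Hochberg adjustment over all genes tested, and a gene was called at an adjusted p under 0.05. Scripts were tested on simulated data. Intervals are unadjusted 95% intervals from the same fit, and ± is the SD over 3 libraries. Relative depth is the commonest ratio of values between 0.001 and 0.1 FPKM, which reflects what 1 read is worth.

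Named genes are HAND1, the 15 largest called rises and falls without overlap, and from each gene list called members with the smallest adjusted p and the most abundant members not called; not every such gene is described, and some are not reported here. The members and lists were chosen with earlier results of these data known. Transcript lengths and promoter windows came from a reference of another build, matched by symbol. Alternatives were other pseudocounts, filters, scalings and weights, no trend, only both compared groups, the replicate number as a block, and each library left out.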

Additional observations from a re-analysis of the deposited data

How the results depend on the processing

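In all 19 alternatives HAND1 remained called lower with its own sgRNA. The count of 749 called genes was between 590 and 786 under other pseudocounts, filters, scalings, no intensity trend or only both compared groups, 1312 with library weights, and between 433 and 729 with a library left out. The count of 460 genes differing between the sgRNAs of HAND1 and ETV1 was between 271 and 592 with a library left out. None of the 749 genes changed direction where it was tested. Of 194 called genes taken by the naming rule, 139 were called in every alternative, 22 lost the call in 1 to 3 and 33 in more than 3. The causes of these changes were not tested. With the replicate number as a block 632 genes were called, 592 of them among the 749, and 364 differed between the sgRNAs. The numbers give no pairing: deviations of same-numbered HAND1 and Luciferase sgRNA libraries correlated at 0.111, −0.146 and −0.0838, and not every library correlated best with its own number. Absolute depth is unknown, so no floor can be given for genes at or near 0.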

Other observations

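A pair of short RNAs was present in 1 library and at 0 in the others. SNORA81, a small nucleolar RNA, was at 0, 0 and 496 FPKM in Luciferase sgRNA replicates 1 to 3 and at 0, 0 and 0 FPKM in HAND1 sgRNA replicates 1 to 3. MIR3648, a microRNA gene, was at 0, 0 and 219 and 0, 0 and 0 FPKM. Neither was called. Both were chosen after their values were seen, and the library that holds them is the one that stood apart in its short transcripts.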
